A study of Mus musculus with 10 samples.

Results

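The mitochondrial ribosomal protein genes of the mouse heart were examined on 10 microarrays, 5 from HIPK2 knockout and 5 from wild-type cardiac tissue. A gene was taken as a member when the gene name in the array files began with Mrpl or Mrps followed by a number. This gave 119 probes for 77 genes, 48 named for the large subunit (Mrpl) and 29 for the small subunit (Mrps), out of 56605 probes and 20607 genes tested on the array. All 77 genes had a probe that was well above background on all 10 arrays, so none was lost to the filter on dim probes. Of the 119 probes, 109 passed that filter and 10 did not, 8 of which were dark on every array.

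The mice were male, on the C57BL/6 strain. The knockout carried a frameshift deletion of 56 bases in the second exon of Hipk2, made with CRISPR, and the knockout animals were crossed with C57BL/6 wild-type mice to expand the colony; the wild-type group carried no edit, and ages and whether animals were pooled are not given in the sources used here. HIPK2 is a nuclear serine/threonine kinase. The 3 Hipk2 probes did not separate the genotypes, with knockout minus wild type differences of -0.01, 0.04 and 0.11 on the log2 scale, and where they lie relative to the deleted bases was not examined, so they do not check the labels. The arrays are called KO1 to KO5 and WT1 to WT5 after the replicate numbers in the labels, which do not say that each sample came from a separate mouse, so a p-value here sets a difference against the scatter of these samples, which may be technical.

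Mitochondria carry their own ribosome, which translates the few messages of the mitochondrial genome, all of them for subunits of the respiratory chain and of ATP synthase. Its RNA comes from the mitochondrial genome, while every one of its proteins is encoded in the nucleus, made in the cytosol and imported. The large subunit forms the peptide bond and holds the exit tunnel, which faces the inner membrane, and the small subunit binds and decodes the message. Heart muscle is rich in mitochondria, and defects of single mitoribosome proteins are a known cause of human cardiomyopathy.

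The 6 cardiomyocyte markers were well above background on all arrays and averaged 8.03 to 8.43 on KO arrays and 7.61 to 8.04 on WT arrays. All levels are log2 of the background-subtracted signal relative to the 75th percentile of the same array, so a step of 1 is a doubling. The percentile itself lay between 286 and 460 signal units on KO arrays and between 462 and 542 on WT arrays, without overlap. WT1 and WT2 shared a slide, and the other 8 arrays shared the second slide. Mean levels of 3 atrial markers ran between -2.75 and 1.56 on KO arrays and between -3.02 and 4.81 on WT arrays.

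No mitochondrial ribosomal protein gene passed the test between knockout and wild-type hearts. In limma, with p-values adjusted over all genes by the Benjamini-Hochberg method and a threshold of 0.05, 0 of 77 members were called, where 4.94% of all genes tested were called, 1.97% higher and 2.97% lower in knockout. At an unadjusted p under 0.05 there were 9 members, or 11.7%, all higher in knockout, against 27.2% of all genes and 14.8% higher in knockout. They were Mrps27, Mrps15 and Mrps30 of the small subunit names and Mrpl10, Mrpl28, Mrpl38, Mrpl39, Mrpl40 and Mrpl49 of the large, and Mrpl28, the one not described further on, differed by 0.20 ± 0.09 (adjusted p = 0.174). The fitted differences ran between -0.19 for Mrpl35 and 0.28 for Mrps27. Every member's 95% interval lay within 0.5 of 0 on the log2 scale, a 1.41-fold difference in either direction, whereas this held for 50.9% of all genes. The 2 sets differ in signal: all members were well above background on every array, while 4028 of the 20607 genes were not. The median SE was 0.10 for members and 0.13 for all genes. For 11 members the interval lay within 0.25 of 0, a 1.19-fold difference, which held for 7.70% of all genes. Those members were Mrpl3, Mrpl13, Mrpl15, Mrpl36, Mrpl43, Mrpl57, Mrps6, Mrps12, Mrps14, Mrps17 and Mrps34, with differences between -0.06 and 0.02.

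The members' differences leaned to one side by a small amount. In 62 of 77 members, or 80.5%, the fitted difference was above 0, against 54.1% of all genes, and the median was 0.09, against 0.03 for all genes. That lean depended on the processing. With normexp in place of the software's subtraction, 46 of 77 members were above 0 and their median was 0.02, below the median of 0.08 over all genes. Quantile normalization and the authors' deposited value table each gave 48 members above 0 with a median of 0.04, and atrial marker level as a covariate gave 53 with a median of 0.05. Without KO4 the members' median was 0.02 with 47 members above 0, and without KO1 it was 0.04 with 46 above 0.

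Large and small subunit genes gave nearly the same picture. Among the 48 large subunit genes 38 were above 0 and 10 below, with a median of 0.09, and among the 29 small subunit genes 24 were above 0 and 5 below, with a median of 0.07. No gene of either subunit passed the test. The mean over the large subunit probes minus that over the small was 0.17, 0.13, 0.18, 0.13 and 0.13 on KO1 to KO5, and 0.17, 0.16, 0.14, 0.14 and 0.15 on WT1 to WT5. The size of that gap depends on the probes and says nothing of the subunits' amounts. Its mean was 0.15 in both genotypes. Subunit names do not all match the structure: Mrps18a and Mrps30 sit in the large subunit, and Mrps36 is now counted as a component of the oxoglutarate dehydrogenase complex. With those assignments the medians were 0.09 for 50 large subunit genes and 0.07 for 26 small subunit genes.

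**Figure D1:**
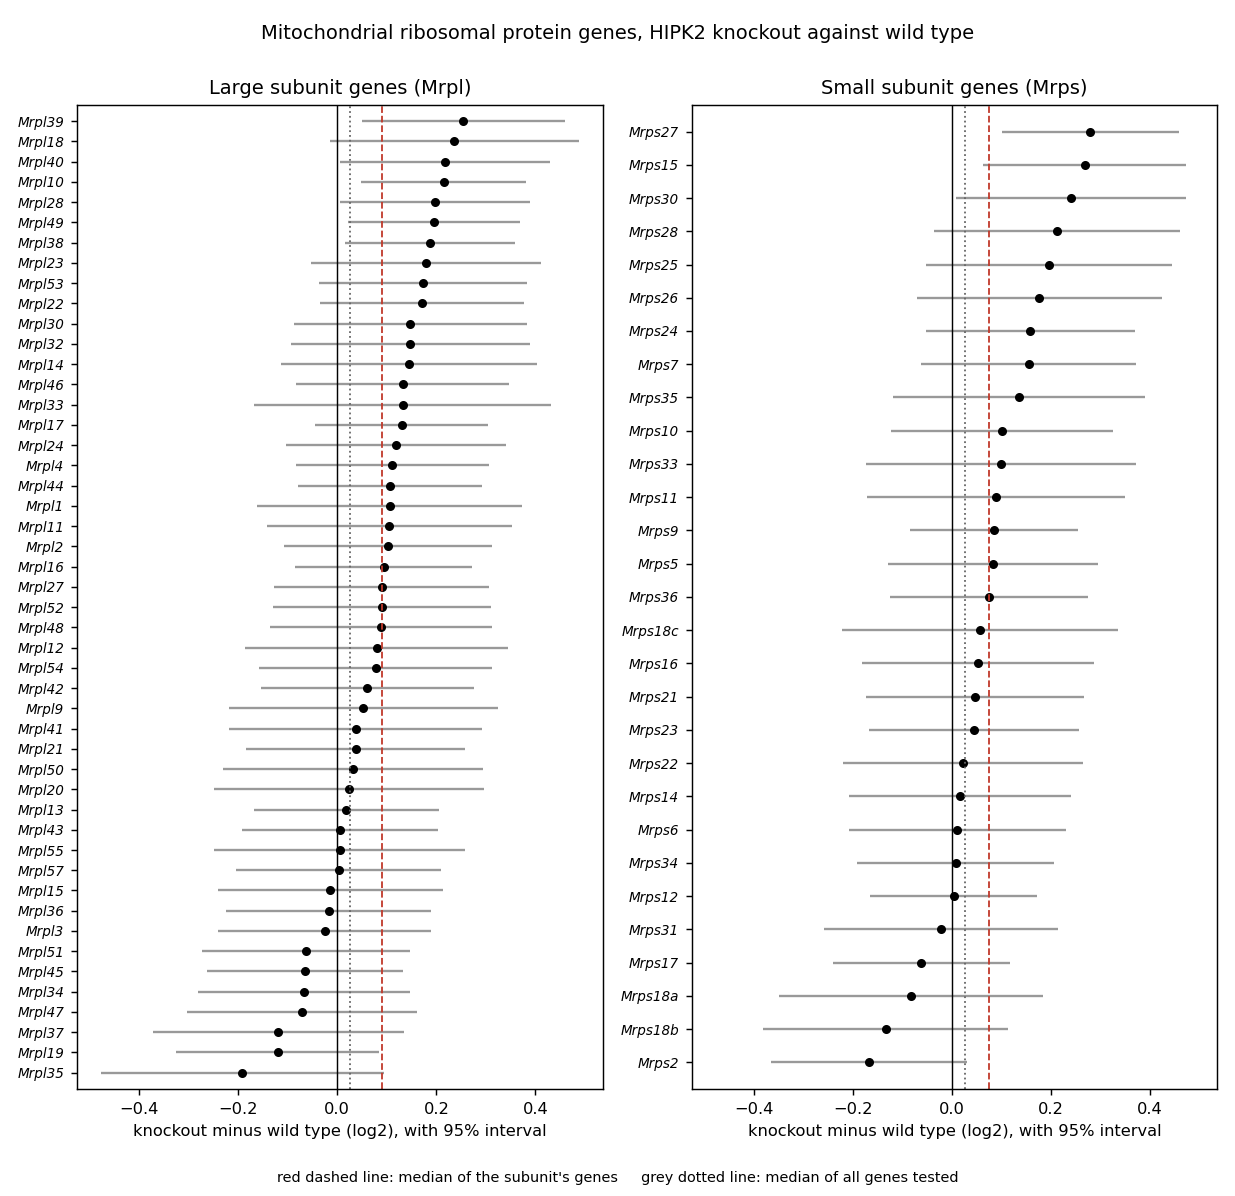
Fitted knockout minus wild type difference on the log2 scale (points) with its 95% interval (bars) for the 48 Mrpl genes on the left and the 29 Mrps genes on the right, sorted by size. The points lie between -0.19 (Mrpl35) and 0.28 (Mrps27), most of them just right of 0, and all intervals stay within 0.5 of 0.

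Proteins with a counterpart in the bacterial ribosome and proteins found in the mitochondrial ribosome alone were also set side by side. The 30 large subunit genes with a bacterial counterpart had a median of 0.10 and the 18 without one 0.08. The 18 small subunit genes with a counterpart had a median of 0.05 and the 11 without one 0.10. Subunits here go by gene name, so Mrps18a is among the 18, and Mrps30 and Mrps36 are among the 11. None of these 4 groups held a gene that passed the test.

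The members lie scattered over 17 chromosomes, and their promoters were searched for motifs. Whether a motif goes with the members' levels on the arrays was not tested. RefSeq windows of 300 bases, 250 before and 50 after the annotated start, on build GRCm38.p6, were found for 68 of the 77 genes (74 windows, since 3 genes have several). The 6 motifs searched, on both strands and by their letters alone, were GCGCA, any base, GCGC for NRF1, CCGGAAGT for ETS factors such as GABPA, AAGATGGC for YY1, GGGCGG for SP1, TGACGTCA for CRE-binding factors and TCAAGGTCA for estrogen-related receptors. NRF1 and GABPA are nuclear factors known for driving many genes of mitochondrial proteins. The NRF1 letters were in 17.6% of member windows against 4.60% of all 32851 windows, the ETS letters in 16.2% against 3.89%, and the YY1 letters in 16.2% against 2.75%. At least 1 of those 3 motifs was found in 34 of 68 members, 50%, against 11.7% of all genes with a window. SP1 letters were in 52.7% against 35.7%, CRE letters in 2.70% against 1.79%, and the receptor letters in none of the member windows against 0.423%. Between the subunits, NRF1 letters were in 21.3% of large and 11.1% of small subunit windows, and YY1 letters in 12.8% of large and 22.2% of small subunit windows. A match is a run of letters and does not show that a factor binds there. The comparison was with all promoters, not with promoters of like base composition. The shares therefore do not show that a motif is particular to these genes.

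**Figure D2:**
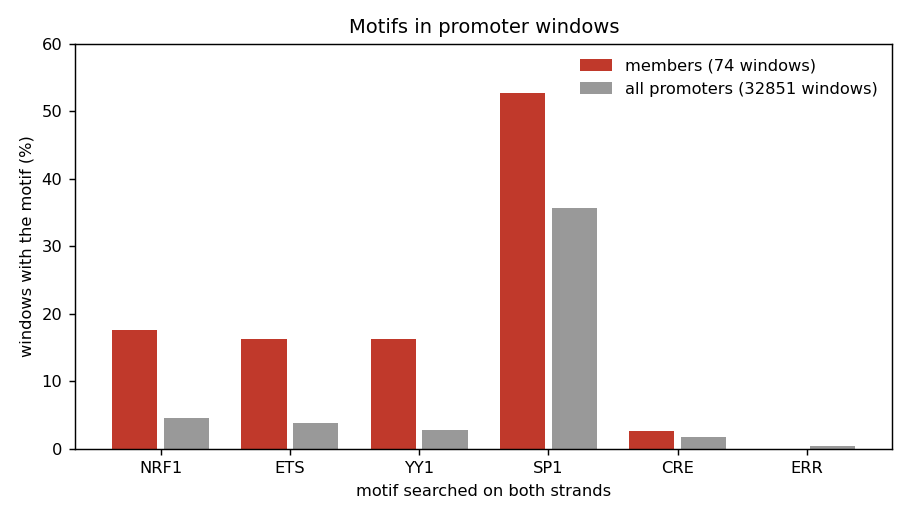
Share of promoter windows, in percent, that hold each motif on either strand, for the 74 member windows (red) and all 32851 RefSeq windows (grey). The NRF1, ETS and YY1 bars are 17.6%, 16.2% and 16.2% in members, each above 4.60%, 3.89% and 2.75% in all promoters.

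Windows are shown for the member with the highest and the lowest difference in each subunit and for a pair of members that share a start region, with the motif letters in capitals on whichever strand they were found. The Mrps27 window (chr13:99344536-99344835, plus strand) holds an ETS and a YY1 match, the Mrpl39 window (chr16:84735195-84735494, minus strand) an NRF1 match, and the Mrpl35 window (chr6:71823735-71824034, minus strand) a YY1 match. The Mrps2 window (chr2:28467816-28468115, plus strand) holds none of the 6. The Mrps11 window (chr7:78782881-78783180, plus strand) holds a YY1 and an SP1 match, and its start lies 42 bases from that of Mrpl46 on the opposite strand. Both strands are written 5′ to 3′ as the gene reads.
Mrps27: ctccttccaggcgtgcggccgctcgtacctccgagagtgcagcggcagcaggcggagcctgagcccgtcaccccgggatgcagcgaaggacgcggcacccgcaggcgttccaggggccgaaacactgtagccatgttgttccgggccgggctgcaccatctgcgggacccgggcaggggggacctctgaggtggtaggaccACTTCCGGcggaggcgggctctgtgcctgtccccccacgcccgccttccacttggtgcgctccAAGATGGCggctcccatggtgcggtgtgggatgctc
Mrpl39: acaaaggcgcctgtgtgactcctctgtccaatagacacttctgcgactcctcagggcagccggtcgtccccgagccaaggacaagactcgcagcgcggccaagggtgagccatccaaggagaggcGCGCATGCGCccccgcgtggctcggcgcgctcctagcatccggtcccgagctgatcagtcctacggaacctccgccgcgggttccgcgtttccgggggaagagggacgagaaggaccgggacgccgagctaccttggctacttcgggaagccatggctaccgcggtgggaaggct
Mrpl35: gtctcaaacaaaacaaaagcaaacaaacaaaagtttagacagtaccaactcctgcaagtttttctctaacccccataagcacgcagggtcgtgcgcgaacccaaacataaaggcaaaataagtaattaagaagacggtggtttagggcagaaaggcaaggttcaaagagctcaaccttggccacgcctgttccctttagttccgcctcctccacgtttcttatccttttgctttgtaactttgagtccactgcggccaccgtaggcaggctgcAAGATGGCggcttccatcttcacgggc
Mrps2: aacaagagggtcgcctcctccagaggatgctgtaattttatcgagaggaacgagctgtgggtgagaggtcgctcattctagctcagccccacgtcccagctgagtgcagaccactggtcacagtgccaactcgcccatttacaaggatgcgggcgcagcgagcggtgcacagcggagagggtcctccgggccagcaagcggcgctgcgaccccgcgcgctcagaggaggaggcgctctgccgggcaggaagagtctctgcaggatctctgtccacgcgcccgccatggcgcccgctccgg
Mrps11: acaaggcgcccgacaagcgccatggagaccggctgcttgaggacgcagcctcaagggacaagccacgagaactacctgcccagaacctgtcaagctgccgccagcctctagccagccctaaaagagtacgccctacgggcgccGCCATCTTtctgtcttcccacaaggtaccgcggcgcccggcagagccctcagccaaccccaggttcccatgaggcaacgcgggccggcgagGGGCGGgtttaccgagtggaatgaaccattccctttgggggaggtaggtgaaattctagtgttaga

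YY1 letters occurred both in Mrps27, the highest of the small subunit genes, and in Mrpl35, the lowest of all members. The starts of Mrps11 and Mrpl46 face away from each other, and their differences were 0.09 ± 0.12 and 0.13 ± 0.10 (fitted log2 ± SE). In all, 23 members have a start within 500 bases of a gene on the opposite strand. Of their partners 18 were measured and are no members, and 1 of the 18 passed the test, where 4.94% of all genes did. That partner was Mitd1, across from Mrpl30. Mitd1 differed by -0.49 (adjusted p = 0.0334, limma), while Mrpl30 differed by 0.15 (adjusted p = 0.393).

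In the body and platform of the small subunit, Mrps27 had the lowest p of all members. It is a pentatricopeptide repeat protein that binds the small subunit RNA of human mitochondria. Its probe lies at chr13:100185397-100185456 of build mm9. Levels of Mrps27 were 2.40, 2.41, 2.24, 2.51 and 2.26 on KO1 to KO5, against 2.15, 2.01, 2.18, 2.07 and 2.02 on WT1 to WT5. Every KO value lay above every WT value, by 0.06 at the nearest. The difference of 0.28 ± 0.08 (SE, n = 5 per group) had an unadjusted p of 0.00563 and an adjusted p of 0.0690 in limma, past the threshold neither here nor in the arrays of the second slide (0.28, adjusted p = 0.163). It passed under quantile normalization (0.28, adjusted p = 0.0334) and in the authors' deposited value table (0.28, adjusted p = 0.0331). Those settings gave nearly the same values, with an SE of 0.0637 and 0.0638 and all-gene medians of -0.0052 and -0.0047. They are therefore not counted as separate results.

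Mrps15, the counterpart of a bacterial protein that binds the ribosomal RNA early in assembly, also separated the genotypes. Its levels, from the probe at chr4:125732712-125732771 of mm9, were 4.80, 4.59, 4.59, 4.81 and 4.64 on KO1 to KO5, against 4.47, 4.19, 4.36, 4.53 and 4.52 on WT1 to WT5. The lowest KO value exceeded the highest WT value by 0.06, and the difference was 0.27 ± 0.09 (adjusted p = 0.104). A second Mrps15 probe, designed to an Ensembl transcript at chr4:125728892-125728951 and well above background on only 3 KO arrays, gave -0.25 ± 0.17.

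Mrps28, the mitochondrial relative of bacterial protein S1, averaged 4.94 ± 0.20 over the KO arrays and 4.72 ± 0.15 over the WT arrays (mean ± SD, 5 arrays each), with overlapping values and an adjusted p of 0.248. At the other end stood Mrps2, a protein between head and body of the subunit, with 2.56, 2.33, 2.30, 2.57 and 2.30 on KO1 to KO5, against 2.62, 2.61, 2.43, 2.67 and 2.58 on WT1 to WT5. KO1 and KO4 lay among the WT values and the other KO arrays below all of them, and the difference was -0.17 ± 0.09 (adjusted p = 0.251). A second, dimmer Mrps2 probe to the same RefSeq transcript, well above background on all arrays, gave 0.00 ± 0.09, so the fall rests on 1 probe. Mrps18b differed by -0.13 ± 0.11 (adjusted p = 0.464), and 2 further probes that passed the filter also gave values below 0. Mrps17, whose bacterial counterpart is an early RNA binder, differed by -0.06 ± 0.08 (adjusted p = 0.654). Over all 16 genes placed in the body and platform, 13 were above 0 and none passed the test, with a median of 0.05.

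The head of the small subunit and the path of the message were more even. Of 7 head genes, among them Mrps7, Mrps9 and Mrps10, 6 were above 0 with a median of 0.10 and none passed the test. Mrps7, a counterpart of the bacterial protein that starts assembly of the head, differed by 0.16 ± 0.10 (adjusted p = 0.329), and a second probe of it gave 0.25 ± 0.11. Mrps9, another head protein, differed by 0.09 ± 0.08 (adjusted p = 0.498) on its bright probe and by 0.26 ± 0.10 (unadjusted p = 0.0199) on a dimmer one to the same RefSeq transcript. Mrps12, which lies at the decoding centre, averaged 4.67 in both genotypes, with a difference of 0.00 ± 0.08. Together with Mrps5 and Mrps24 it gave 3 genes above 0, a median of 0.08 and no call. Mrps30 and Mrps18a, small subunit proteins by name only, differed by 0.24 ± 0.10 (adjusted p = 0.169) and -0.08 ± 0.12 (adjusted p = 0.690). A second, dim Mrps18a probe to an Ensembl transcript gave 0.08 ± 0.14.

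In the large subunit the central protuberance, which contacts the small subunit and the transfer RNAs, held 8 members, all above 0, with a median of 0.11 and no call. Mrpl38, one of its mitochondrion-specific proteins, had levels of 2.96, 2.87, 3.04, 3.08 and 2.83 on KO1 to KO5, against 2.79, 2.67, 2.82, 2.80 and 2.77 on WT1 to WT5. The groups did not overlap, by a margin of 0.01 between KO5 and WT3, and the difference was 0.19 ± 0.08 (adjusted p = 0.154). A second RefSeq probe of Mrpl38 gave 0.21 ± 0.10 and another, to an Ensembl transcript at low signal, -0.13 ± 0.11. Mrpl18, relative of the bacterial protein that binds the 5S RNA, differed by 0.24 ± 0.11 (adjusted p = 0.206). Mrpl40, another mitochondrion-specific protein there, differed by 0.22 ± 0.10 (adjusted p = 0.174). Among WT arrays both genes were lowest on WT2.

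The stalks held 6 members, all above 0, with a median of 0.11 and no call. Mrpl10 anchors the flexible stalk formed by Mrpl12. Its levels, from the probe at chr11:96910057-96910116 of mm9, were 2.69, 2.82, 2.68, 2.87 and 2.69 on KO1 to KO5, against 2.60, 2.47, 2.62, 2.50 and 2.49 on WT1 to WT5. All KO values lay above all WT values, the difference was 0.21 ± 0.08 (adjusted p = 0.108), and its second probe gave 0.30. Mrpl12, which in human cells also binds the mitochondrial RNA polymerase, averaged 5.83 ± 0.25 over the KO arrays and 5.75 ± 0.09 over the WT arrays (SD), and KO1 and KO4 alone lay above the WT range.

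Mrpl39, which resembles part of a threonyl-tRNA synthetase, had the highest difference of the large subunit. Its levels, from the probe at chr16:84718547-84718606 of mm9, were 3.88, 3.64, 3.67, 3.90 and 3.58 on KO1 to KO5, against 3.46, 3.32, 3.62, 3.51 and 3.48 on WT1 to WT5. KO5 lay below WT3, so the groups overlapped, and the difference was 0.25 ± 0.09 (adjusted p = 0.118). Mrpl49, a mitochondrion-specific protein, had 1.92, 1.75, 1.71, 1.92 and 1.72 on KO1 to KO5, against 1.59, 1.51, 1.68, 1.65 and 1.61 on WT1 to WT5. Those groups did not overlap, and the difference was 0.19 ± 0.08 (adjusted p = 0.145).

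Around the exit tunnel and the peptidyl transferase centre the values were mixed. Of 7 genes at the tunnel rim 5 were above 0, with a median of 0.12, and of 3 genes near the catalytic centre 2 were above 0, with a median of 0.09; no gene passed the test in either. The rim genes Mrpl22 and Mrpl23, whose bacterial counterparts line the tunnel and bind the signal recognition particle, differed by 0.17 ± 0.09 (adjusted p = 0.261) and 0.18 ± 0.11 (adjusted p = 0.293). Mrpl2 and Mrpl3, which reach toward the catalytic centre, differed by 0.10 ± 0.10 (adjusted p = 0.515) and -0.03 ± 0.10 (adjusted p = 0.892). Mrpl47, at the tunnel rim, differed by -0.07 ± 0.11 (adjusted p = 0.694). Mrpl45, which ties the ribosome to the inner membrane, differed by -0.06 ± 0.09 (adjusted p = 0.674).

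Mrpl35, a counterpart of a small bacterial protein, gave the lowest difference of all members. It had -0.05, -0.39, -0.47, -0.18 and -0.47 on KO1 to KO5, against 0.12, 0.11, -0.38, -0.19 and -0.27 on WT1 to WT5. Its 2 highest values were those of WT1 and WT2, the arrays of the first slide. The difference was -0.19 ± 0.13 (adjusted p = 0.360) over all arrays and -0.03 (adjusted p = 0.902) within the second slide. Mrpl19 and Mrpl37 differed by -0.12 ± 0.09 (adjusted p = 0.421) and -0.12 ± 0.11 (adjusted p = 0.530), and by -0.05 and -0.02 within the second slide. Of the 24 large subunit genes given none of these places, 17 were above 0, with a median of 0.03 and no call.

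**Figure D3:**
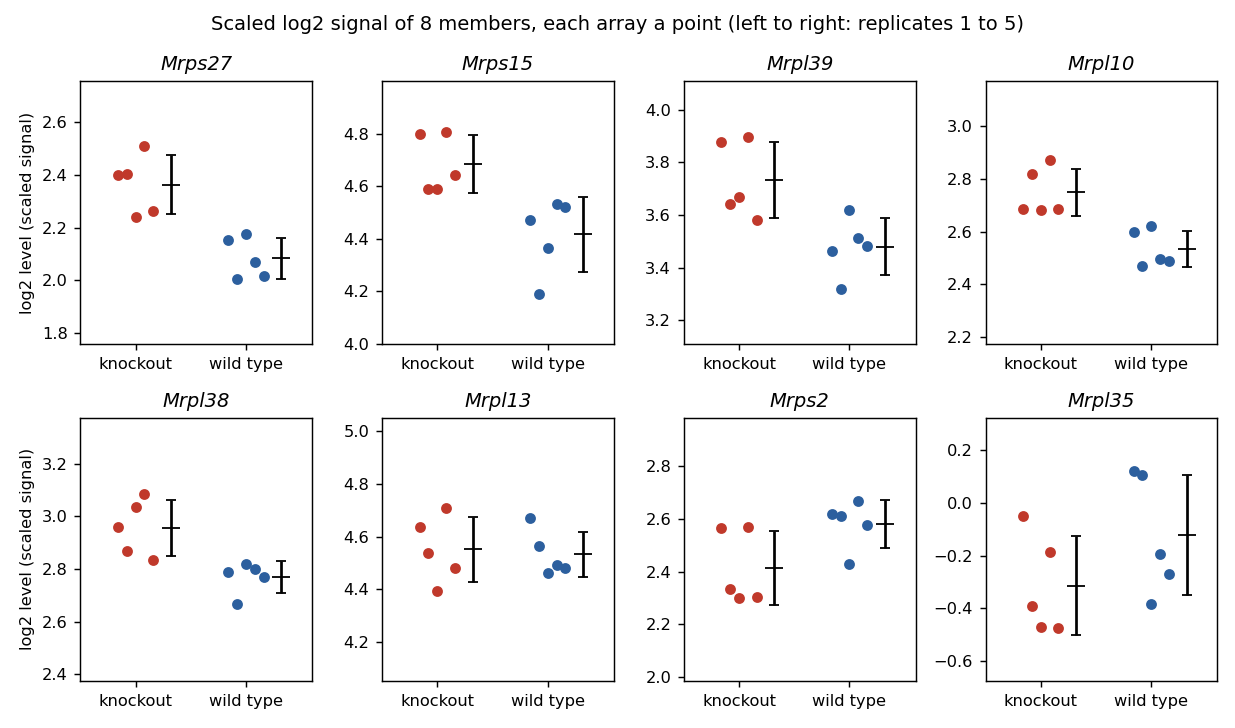
Scaled log2 signal of 8 members, 1 point per array in the order of replicate numbers, knockout in red on the left and wild type in blue on the right of each panel, with the mean and SD as black bars (n = 5 each). All panels use the same span: the genotypes do not overlap for Mrps27, Mrps15, Mrpl10 and Mrpl38, and do for Mrpl39, Mrpl13, Mrps2 and Mrpl35.

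In all, 5 members had knockout values that lay entirely above the wild-type values: Mrps27, Mrps15, Mrpl10, Mrpl49 and Mrpl38. That is 6.49% of members, against 4.54% of all genes that lay entirely above and 8.98% that did not overlap in either direction. No member lay entirely below, against 4.44% of all genes.

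Several members were measured by more than 1 probe, and these showed how far a gene's value depends on the probe. The 2 probes that passed the filter through their WT arrays alone, among them the second Mrps15 probe, were left out of this count. Of 24 genes with several probes well above background on at least 4 arrays of each genotype, 9 had probes with opposite signs, and in 2 of these at least 1 probe had an unadjusted p under 0.05. The median spread between probes of a gene was 0.12 and the widest 0.38, for Mrpl13. Mrpl13, the counterpart of a bacterial protein of the large subunit's surface, gave 0.02 ± 0.09 with its bright probe at chr15:55365795-55365854 and -0.36 ± 0.12 (unadjusted p = 0.0154, adjusted p over all kept probes = 0.110) with a dim probe to an Ensembl transcript at chr15:55381049-55381108. The dim probe had -2.93, -2.63, -2.72, -2.87 and -2.51 on KO1 to KO5, against -2.26, -2.34, -2.76, -2.28 and -2.23 on WT1 to WT5, and WT3 alone of the WT arrays lay among the KO values. No deposited annotation of the array's build was used here, so exon and untranslated positions of these probes are not given.

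The members' values differed between arrays more than between genotypes. A count made after the values had been seen was that of the array holding each gene's highest value. This was KO4 in 38 members and KO1 in 31, together 69 of 77 or 89.6%, where these 2 arrays held the highest value in 26.2% of all genes. The other 8 members had their highest value on a WT array (5 on WT1, 2 on WT3 and 1 on WT4), and no member on KO2, KO3 or KO5. Relative to each gene's WT mean, the median member stood at 0.23 on KO1 and 0.25 on KO4, and at 0.00, -0.03 and -0.05 on KO2, KO3 and KO5. KO1 and KO4 each lay above the whole WT range in 66 members and below it in none. KO2 lay above that range in 12 members and below it in 20, KO3 in 11 and 25, and KO5 in 6 and 29. Among WT arrays the medians ran between -0.07 on WT2 and 0.07 on WT3. The lowest value of a member lay on KO5 in 20 members and KO3 in 17, and on WT2 in 30 or 39.0%, where WT2 held the lowest value in 15.7% of all genes. WT2 also had the highest mean of 3 atrial markers, 4.81, and of 4 fat markers, 0.29, with fat marker means of -5.04 to -2.96 on KO arrays and -4.17 to -2.21 on the other WT arrays. Members at an unadjusted p under 0.05 numbered 9 over all arrays and 3 without WT2. Of all genes, 27.2% had such a p over all arrays and 21.99% without WT2. With any other array left out, that count of members ran between 4 (without KO1 or WT1) and 10 (without KO5). All 4 fat markers were below the background limit on some arrays, and whether fat tissue had a part in the members' levels was not tested.

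**Figure D4:**
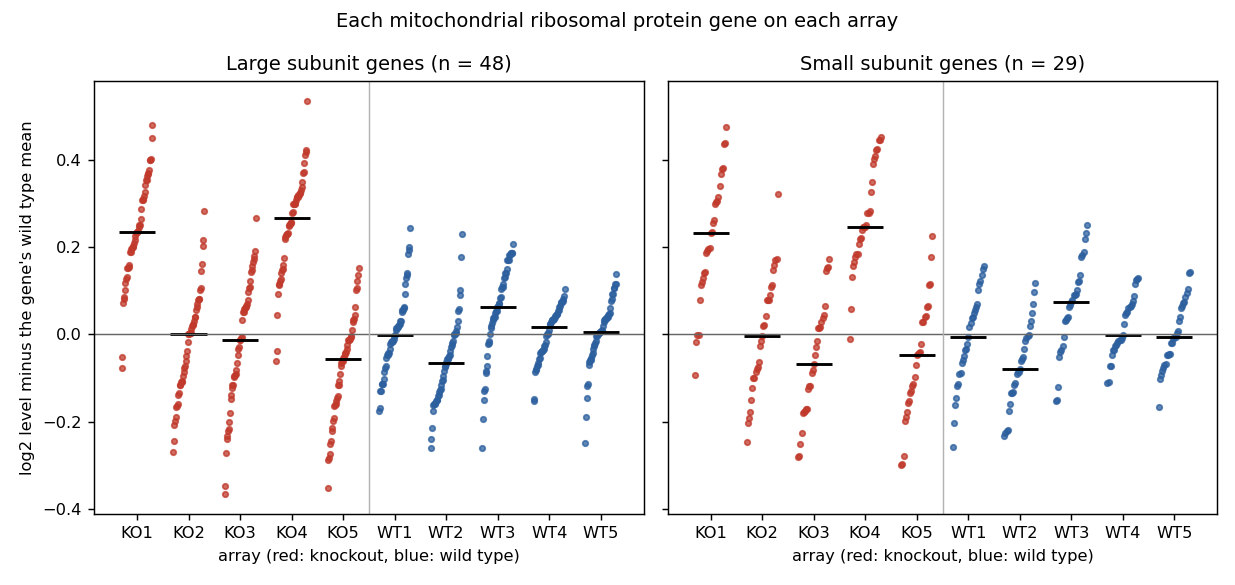
Log2 level of each member minus that gene's wild-type mean, on each array, for the 48 large (left) and 29 small (right) subunit genes, with knockout arrays in red left of wild-type arrays in blue and black bars at the median. KO1 and KO4 stand above the other arrays in both subunits (medians of 0.24 and 0.27 for large, 0.23 and 0.25 for small subunit genes), while KO2, KO3 and KO5 have medians between -0.07 and 0.00.

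Both subunits were highest on the same arrays. The mean level of the 48 large subunit genes was 4.25, 3.99, 3.99, 4.27 and 3.94 on KO1 to KO5, against 4.02, 3.95, 4.07, 4.02 and 4.02 on WT1 to WT5. The mean of the 29 small subunit genes was 4.09, 3.86, 3.80, 4.14 and 3.81 on KO1 to KO5, against 3.85, 3.79, 3.93, 3.88 and 3.87 on WT1 to WT5. KO1 and KO4 were the highest arrays for both, and the 3 other knockout arrays overlapped the wild-type arrays. The SD between arrays had a median over members of 0.18 in knockout and 0.09 in wild type, against 0.21 and 0.18 over all genes, and it was larger in knockout in 65 of 77 members, or 84.4%, against 58.7% of all genes. KO1 and KO4 also held the 2 highest member means after scaling to the median, after normexp and after quantile normalization.

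Other nuclear-encoded gene sets followed the same arrays. Of 37 complex I subunit genes, whose products share the inner membrane with the proteins that the mitoribosome makes, 35 had their highest value on KO1 or KO4, 36 were above 0 and none passed the test, with a median of 0.25. Of 83 cytosolic ribosomal protein genes, 76 had it on KO1 or KO4 and 76 were above 0, again with no call, and with a median of 0.17. The members' median of 0.09 was thus below both, and no test of that difference was made. Low values on WT2 were also shared. WT2 held the lowest value in 32 of the 37 complex I genes (86.5%) and 52 of the 83 cytosolic ribosomal protein genes (62.7%). Both shares were larger than the 39.0% of members.

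Mean levels of macrophage, fibroblast and endothelial markers were lowest on KO1 and KO4, while those of red blood cell markers were not. The mean of 9 macrophage markers was 1.43 on both KO1 and KO4, against 1.76 to 1.97 on the other KO arrays and 1.94 to 2.21 on WT arrays, and all 9 had their lowest value on KO1 or KO4. The mean of 4 fibroblast markers was 1.96 on KO1 and 1.82 on KO4, with 2.28 to 2.72 on the other KO arrays and 2.29 to 2.70 on WT arrays, and that of 4 endothelial markers was 2.10 and 2.20, with 2.33 to 2.42 on the other KO arrays and 2.47 to 2.72 on WT arrays. All 4 fibroblast markers and 3 of the 4 endothelial markers had their lowest value on KO1 or KO4. All of these markers were well above background on every array, and 1 passed the test, the endothelial VEGF receptor gene Kdr, which fell by 0.80 in knockout (adjusted p = 0.0147). The mean of the cardiomyocyte markers was 8.23 on KO1 and 8.42 on KO4, with 8.03 to 8.43 on the other KO arrays and 7.61 to 8.04 on WT arrays. That of 3 red blood cell markers was 5.05 on KO1 and 4.91 on KO4. It was 4.63 to 4.98 on the other KO arrays and 4.24 to 5.21 on WT arrays. Whether the cell makeup of the samples had a part in the members' levels was not tested, and fewer cells of a type and less RNA per cell cannot be told apart in whole tissue.

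**Figure D5:**
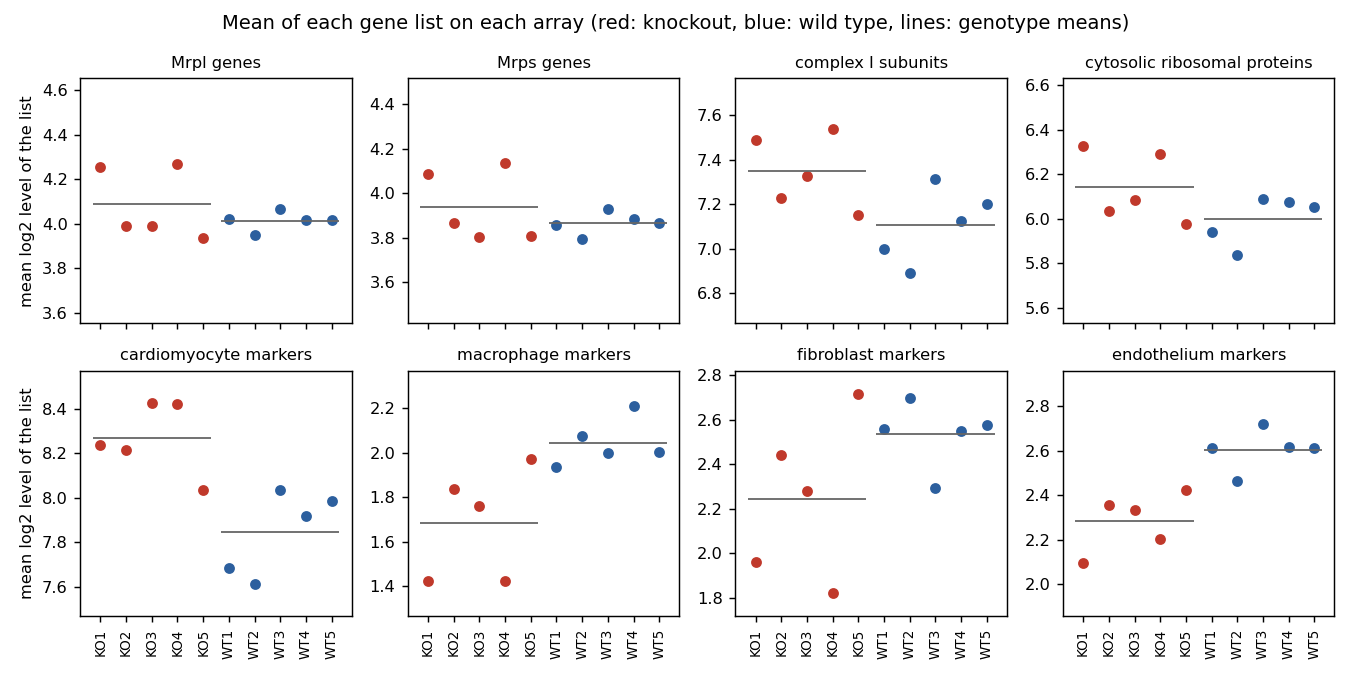
Mean log2 level of 8 gene lists on each array, knockout arrays in red left of wild-type arrays in blue, with lines at the genotype means, all panels with the same span. KO1 and KO4 are the highest arrays for Mrpl genes, Mrps genes, complex I subunits and cytosolic ribosomal proteins, and the lowest for macrophage, fibroblast and endothelium markers.

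Other genes of mitochondrial translation and transcription were described in 5 lists, none of which held a gene that passed the test. Of 7 mitoribosome proteins listed under other names, Mrp63 is the member Mrpl57, and Ict1, now named Mrpl58 in RefSeq, is no member because the array files call it Ict1. Of the 7, 6 were above 0 with a median of 0.10. Gadd45gip1, which lies at the exit tunnel, differed by 0.24 ± 0.10 (adjusted p = 0.169), and Aurkaip1, a small subunit protein, by 0.22 ± 0.12 (adjusted p = 0.253). Of 15 translation factors and accessory proteins 11 were above 0, with a median of 0.10. Tufm, the elongation factor that brings transfer RNA to the ribosome, had 5.94, 5.87, 6.10, 6.10 and 5.83 on KO1 to KO5, against 5.55, 5.39, 5.78, 5.68 and 5.80 on WT1 to WT5. All KO values of Tufm lay above all WT values, and the difference was 0.33 ± 0.10 (adjusted p = 0.0834). Oxa1l, which inserts the new chains into the inner membrane, differed by 0.21 ± 0.10 (adjusted p = 0.217).

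Among 22 genes of mitoribosome assembly and RNA modification 16 were above 0, with a median of 0.11. Rpusd4, a pseudouridine synthase of the large subunit RNA, had 1.22, 1.04, 1.02, 1.07 and 1.02 on KO1 to KO5, against 0.87, 0.77, 0.91, 0.77 and 0.64 on WT1 to WT5. Its groups did not overlap, and the difference was 0.28 ± 0.08 (adjusted p = 0.0660). Rbfa, a maturation factor of the small subunit, differed by 0.25 ± 0.09 (adjusted p = 0.114). Of 17 mitochondrial aminoacyl-tRNA synthetases 16 were above 0, with a median of 0.11. Hars2 and Iars2, which charge histidine and isoleucine tRNA, differed by 0.21 ± 0.08 (adjusted p = 0.113) and 0.21 ± 0.08 (adjusted p = 0.139). The only synthetase below 0, Rars2, differed by -0.22 ± 0.09 (adjusted p = 0.153). Of 6 genes of mitochondrial transcription 5 were above 0, with a median of 0.04, and Polrmt, the RNA polymerase, differed by 0.07 ± 0.07 (adjusted p = 0.540) and Mterf2 by 0.15 ± 0.13 (adjusted p = 0.463).

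Over all genes the test called 405 genes higher and 612 lower in knockout, a share of 39.8% higher, and with normexp it called 2233 higher and 878 lower, a share of 71.8%. Under both, and under each of the other settings except quantile normalization and the authors' deposited table, no member was called.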

How the data were processed

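Total RNA was hybridised alone to 1-colour Agilent arrays. Per the file headers, the deposited spot intensity had its background subtracted and a spatial trend removed, array by array, by Agilent Feature Extraction (10.7.1.1 per the submitters' processing notes). The authors also deposited a value table on a log2 scale, used as an alternative, with its filtering not given in the sources used here. From the intensity, log2 was taken and each array's log2 75th percentile over 59305 non-control spots subtracted. Spots marked as outliers were left out and spots of a probe averaged. Probes well above background, per the deposited flag, on at least 4 of 5 arrays of a genotype were kept (30693 of 56605), and the brightest stood for its gene. RefSeq accessions named 32994 probes. Genotypes were compared over all 20607 genes with limma 3.58.1 (R 4.3.3, lmFit and eBayes, no covariates) and Benjamini-Hochberg adjustment. The fit was also run on simulated data with noise drawn independently for each gene and array. Such noise holds no shift shared by the genes of an array, so the fit was not tested for one. Differences are knockout minus wild type ± SE. The number of arrays limits the precision.

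Named members are the 4 highest and 4 lowest differences of each subunit, members without overlap between genotypes and members whose probes disagree. From each pathway list 2 genes were named by smallest p. Others were named for their role, and Rars2 as the only synthetase below 0. Members and lists were chosen with earlier results of these data known. Alternatives covered background correction, scaling, filter, probe choice, slide, replicate number and leaving out each array. Promoter windows are from RefSeq, GRCm38.p6, and probe positions from the array files, mm9.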

Additional observations from a re-analysis of the deposited data

Results flagged for a closer look

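The 77 members, the 10 genes named from the pathway lists by smallest p and the mean of each subunit were checked. In each genotype of these, a single array far from the other 4 was sought. Of these 178 groups 6 held one, where chance alone gives about 1 in 20. Among the members, all 4 were in wild type. Mrpl54, counted with the stalks, stood at 4.54 on WT3, above 4.30 to 4.35 on the other WT arrays, and Mrps10, of the small subunit head, at 2.76 on WT3, above 2.48 to 2.56. Mrps36 stood at 4.64 on WT2, below 4.78 to 4.84 on the others, and Mrps9 at 3.14 on WT1, above 2.98 to 3.01. Of the pathway genes, Rpusd4 stood at 1.22 on KO1, above 1.02 to 1.07 on the other KO arrays, and Iars2 at 1.90 on KO3, below 2.13 to 2.19. The means of the large and small subunit genes held no such array in either genotype.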

How the results depend on the processing

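Members called numbered 0 under every setting except quantile normalization and the authors' value table, where the count was 1, Mrps27. Calls over all genes moved to 3111 with normexp, 173 with no filter, 458 on the second slide alone, 164 with the replicate number as a block and 57 with atrial marker level in the model, a setting added after the data were seen. Leaving out 1 array gave 282 (without WT5) to 940 (without KO5) calls, among them 434 without KO1, 368 without KO2, 469 without KO4, 381 without WT2 and 304 without WT4. The replicate block called no member, and same-numbered arrays did not deviate together (correlations of -0.11 to 0.05). Weak correlations cannot show whether the samples were paired by design, which the labels do not say. Leaving out 1 array, the large subunit median ran between 0.04 (without KO4) and 0.13 (without KO5) and the small between 0.01 and 0.11, for the same arrays. Without KO1 the medians were 0.04 and 0.01. Over the second slide alone they were 0.07 and 0.05. Rpusd4 passed under quantile normalization and in the authors' value table (adjusted p = 0.0441 and 0.0439). Mrpl13 turned to -0.0048 with normexp, -0.013 with quantile normalization, -0.013 in the authors' value table, -0.17 with the mean of its probes, -0.029 with the atrial score, -0.0025 without KO1 and -0.021 without KO4, and its leave-one-out values reached 0.0577 (without KO3); Mrps18a turned to 0.0010 with the mean of its probes; the cause was not tested. The other 389 alternative values of named members kept their direction and their side of the threshold, and both subunit medians stayed above 0 under every setting. Signal over background limited none of the members, all bright on every array.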

Other observations

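Genes that face a member across a shared start region were also read. Of the 18 measured ones that are no members, 11 were above 0, against 54.1% of all genes, with a median difference of 0.04, and 3 had an unadjusted p under 0.05, against 27.2% of all genes. Fau, across from Mrpl49 (0.19), differed by 0.18 (adjusted p = 0.305), and Ptcd2, across from Mrps27 (0.28), by 0.24 (adjusted p = 0.201). Ndufb5, a complex I subunit across from Mrpl47 (-0.07), differed by 0.16 (adjusted p = 0.276), and Helq, across from Mrps18c (0.06), by -0.38 (adjusted p = 0.0532).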
